A study of Caenorhabditis elegans with 2 samples.

Results

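The genes described here encode aminoacyl-tRNA synthetases and translation initiation and elongation factors of the nematode Caenorhabditis elegans. They were chosen by a symbol rule, with earlier results of these data known. The symbol had to be a single letter followed by ars-1 or ars-2, or start with eif-, eef-, ife- or ifg-. This gave 68 of 19973 nuclear protein-coding genes, of which 31 were synthetase genes, 31 initiation factor genes and 6 elongation factor genes. Binding of PAT-9, a C2H2 zinc finger transcription factor needed for body wall muscle, was measured by chromatin immunoprecipitation and sequencing (ChIP-seq) in whole late embryos of strain RW12085. The labels give the embryos, of pooled sexes and synchronised by egg bleaching, an age of 3 hours, and they form 1 group of 2 biological replicates with no second condition. Both replicates carry the same CRISPR insertion at pat-9, given for the strain as mNG and 3xFlag and elsewhere in the labels as GFP. Chromatin was precipitated with anti-GFP. mNG is mNeonGreen, a fluorescent protein that does not derive from GFP, so these labels do not all fit together. Chromatin came from whole embryos, so a site cannot be assigned to muscle or to any other tissue.

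Aminoacyl-tRNA synthetases attach each amino acid to its tRNA, in the cytoplasm and, through separate or shared genes, in mitochondria. Initiation factors load the initiator tRNA and the small ribosomal subunit onto a capped mRNA, and elongation factors deliver charged tRNAs and move the ribosome along. Translation takes place in every tissue of the worm, though single factors can differ between tissues. In the compact genome of the worm, neighbouring genes can share a promoter or a polycistronic transcript.

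The peaks that passed the authors' reproducibility filter (IDR), called optimal peaks, numbered 735. A gene was called bound when an optimal peak had its summit in the promoter window, which begins 1000 bp before a protein-coding transcript's 5′ end and stops 500 bp after it. The sequences at 5 bound genes are shown because their peaks carry the binding described below. Each is given 5′ to 3′ on the gene's own strand around the pooled summit, on build ce11 (RefSeq WBcel235), cut where annotated untranslated sequence would exceed 30 bases. Capitals mark matches on either strand to 7 short words. These were the repeat GAGAGA, the CpG-rich words CGCGCA, spelled TGCGCG on the other strand, with CGCCGC as the second, then GGTTCGA, which tRNA genes carry in their internal promoter, the TATA word TATAAA, the GC-box word CCCGCCC, and finally TTTTCAG. The last is also the worm's consensus at 3′ splice sites, including those that accept the trans-spliced leader.

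The windows lay at chrIV:390443-390563 (minus strand) for ears-2, chrV:10965598-10965748 (plus) for eef-1G, chrIII:7973139-7973300 (minus) for eef-1B.1, chrIII:8971730-8971921 (minus) for eif-3.D and chrII:11694580-11694780 (minus) for tars-1. The summit is at base 61 in the ears-2 sequence, 62 in eef-1B.1 and 92 in eif-3.D, and follows the first 100 bases in eef-1G and tars-1.
ears-2: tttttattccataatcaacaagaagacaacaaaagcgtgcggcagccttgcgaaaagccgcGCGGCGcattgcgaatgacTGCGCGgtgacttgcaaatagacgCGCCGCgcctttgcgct
eef-1G: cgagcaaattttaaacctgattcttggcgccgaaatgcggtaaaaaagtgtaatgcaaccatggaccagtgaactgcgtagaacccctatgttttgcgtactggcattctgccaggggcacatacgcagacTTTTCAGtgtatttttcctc
eef-1B.1: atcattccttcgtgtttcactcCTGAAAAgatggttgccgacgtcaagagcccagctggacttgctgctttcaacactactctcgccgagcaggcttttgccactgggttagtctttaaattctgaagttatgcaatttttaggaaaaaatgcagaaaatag
eif-3.D: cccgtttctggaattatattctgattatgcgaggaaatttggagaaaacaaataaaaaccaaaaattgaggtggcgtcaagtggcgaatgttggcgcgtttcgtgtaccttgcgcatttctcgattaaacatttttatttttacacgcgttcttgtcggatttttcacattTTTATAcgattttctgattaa
tars-1: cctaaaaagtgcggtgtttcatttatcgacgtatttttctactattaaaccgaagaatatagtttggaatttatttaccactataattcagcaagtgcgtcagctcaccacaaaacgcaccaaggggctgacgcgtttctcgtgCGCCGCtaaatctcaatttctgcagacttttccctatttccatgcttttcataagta

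The ears-2 window holds CGCCGC at 2 places, 1 on each strand, and 1 CGCGCA, all on the start side of the summit. The eef-1G window has 1 TTTTCAG on the gene's strand, eef-1B.1 the same word on the other strand, eif-3.D a TATAAA on the other strand and tars-1 a CGCCGC on the gene's strand. GC content of the printed windows was 53.7% for ears-2, 45.7% for eef-1G, 43.2% for eef-1B.1, 35.9% for eif-3.D and 39.8% for tars-1.

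Of the 68 genes, 6 were bound (8.82%): the synthetase genes ears-2 and tars-1, the initiation factor genes eif-3.C and eif-3.D, and the elongation factor genes eef-1G and eef-1B.1. The same was true of 513 of all 19973 protein-coding genes (2.57%). A region of any strength in the pooled list, which holds 30000 regions and reaches far into the background, lay in the window of 52 of the 68 genes (76.5%), against 43.4% of all protein-coding genes. Among genes with such a region, 6 of 52 were bound (11.5%), against 5.91% of the 8678 protein-coding genes with one. The median rank of the strongest pooled region was 4965 over the 52 genes and 10406.5 over the 8678, where rank 1 is the strongest. The median signal, the authors' own value, which can be compared inside 1 list, was 50.5 over the 52 genes and 39.4 over the 8678. These are descriptions of a list of genes in 1 group of samples, and no test was made of them. The genes also held more pooled regions per promoter window, with a mean of 1.13 against 0.649 over all protein-coding genes. The median window length was 1501 bp in both. Genes with several starts had longer windows, up to 5204 bp at qars-1 and 3612 bp at pars-2, and mean lengths were not compared. The part of window length and of regions per window in the counts was not tested.

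Further genes had regions just below the threshold, which did not pass the reproducibility filter. Another 9 of the genes had their strongest region among the next 735 pooled regions, which brings the count to 15 of 68 (22.1%) at pooled rank 1470 or better, against 4.9% of all protein-coding genes. Among the 735 regions that each replicate ranked highest, the count was 5 in replicate 1 (7.35%, against 2.29% of all protein-coding genes) and 8 in replicate 2 (11.8%, against 2.51%). Genes found in both were ears-2, eif-3.C, eif-3.D and eef-1G. A region in all 3 lists was present at 38 of the 68 genes (55.9%), against 27.3% of all protein-coding genes. At the other end, 8 of the 68 genes had no region in any list. The share of all protein-coding genes with none in any list was not counted. A pooled region was present at 76.5% of the 68 genes and at 43.4% of all protein-coding genes. The 8 are therefore not read as an absence particular to these genes.

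**Figure D1:**
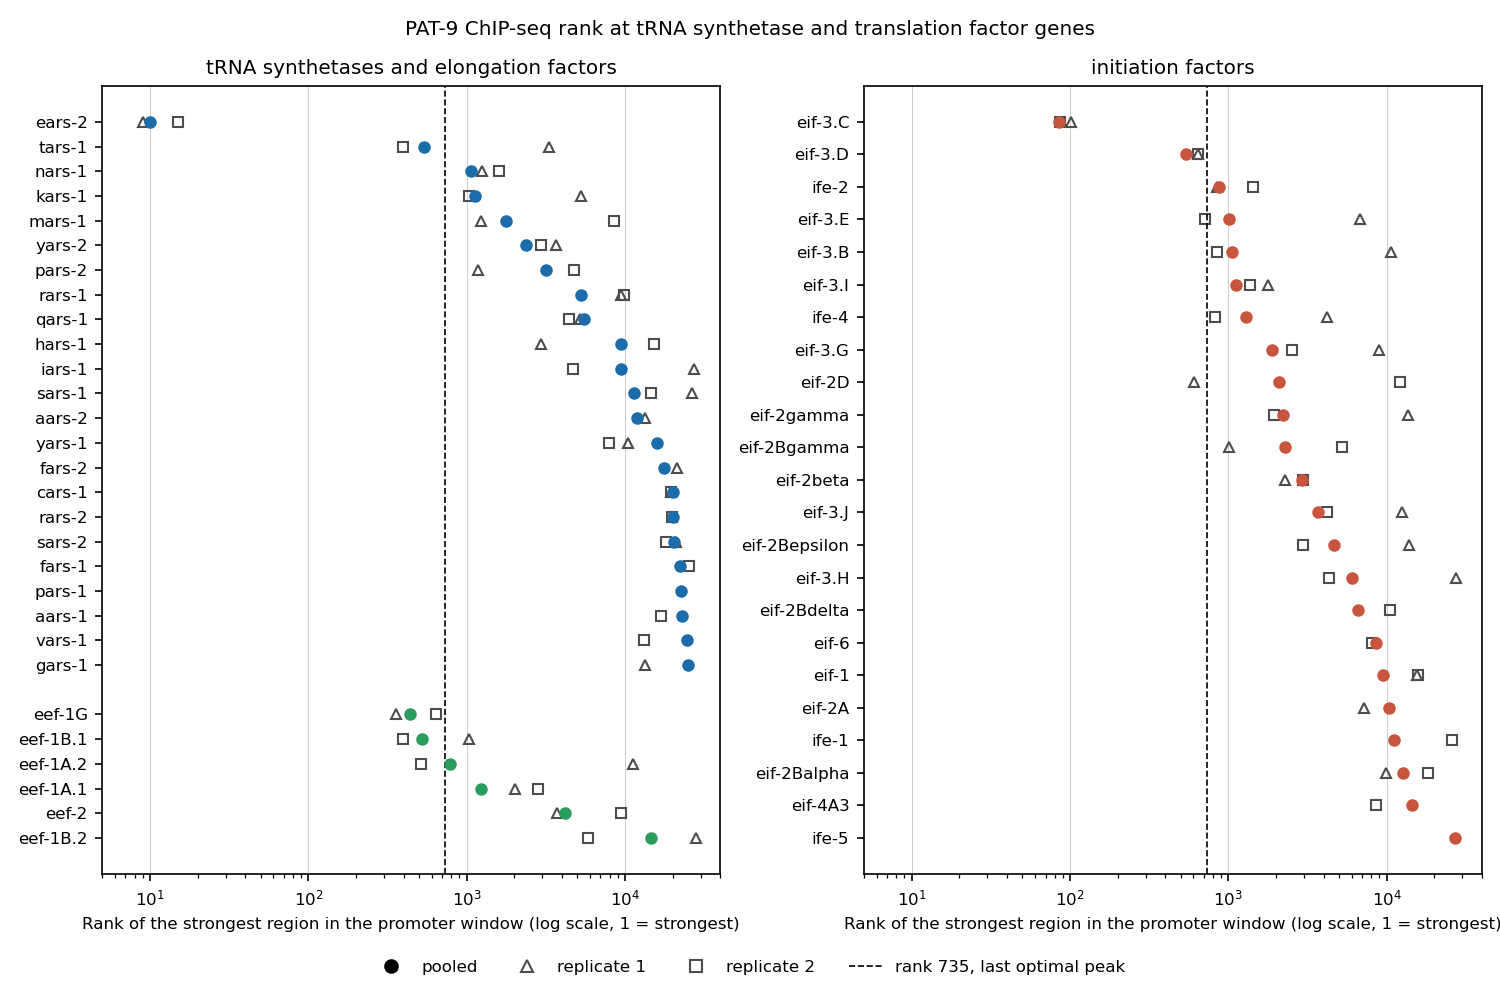
Rank of the strongest region in the promoter window of each gene with a pooled region (log scale, 1 is the strongest), in the pooled list (filled circles) and in the lists of replicate 1 (triangles) and replicate 2 (squares). The dashed line is rank 735, the last optimal peak: 6 filled circles lie left of it, and the symbols of the 3 lists lie close together at ears-2, eif-3.C and eif-3.D and far apart at genes such as eef-1A.2 and eif-2D.

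**Figure D2:**
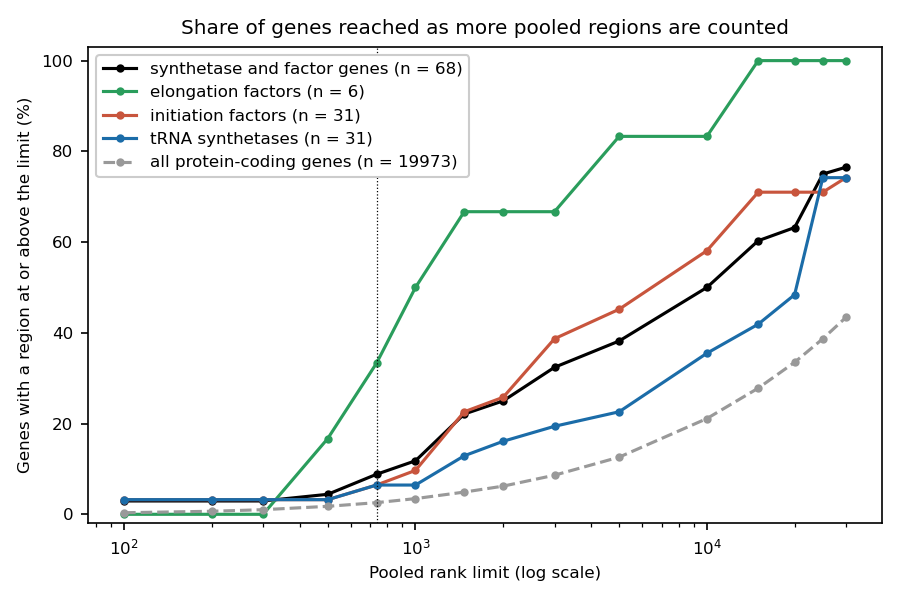
Share of genes (percent) whose strongest pooled region lies at or above a rank limit (log scale), for the 68 synthetase and factor genes, their 3 classes and all 19973 protein-coding genes. The dotted line marks rank 735; at rank 1470 the share was 66.7% for elongation factors, 22.6% for initiation factors, 12.9% for synthetases and 4.9% for all protein-coding genes.

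The strongest site by far was at ears-2, which encodes a mitochondrial glutamyl-tRNA synthetase. Its peak (chrIV:390345-390637) had a signal of 499 at pooled rank 10, with 202 at rank 9 in replicate 1 and 299 at rank 15 in replicate 2. The summit lay 35 bp upstream of the ears-2 start and 57 bp upstream of the start of uncp-18, which runs the other way, so the peak fills the gap between the starts of both genes. The summits of the replicates lay within 3 bp of the pooled one. The other bound synthetase gene, tars-1, encodes the cytoplasmic threonyl-tRNA synthetase. Its peak (chrII:11694465-11694894) had a signal of 116 at rank 540, with 29.4 at rank 3294 in replicate 1 and 86.8 at rank 394 in replicate 2. It was among the 735 strongest regions in replicate 2 and not in replicate 1, although the summits of the replicates again lay within 3 bp of the pooled one. The site is not at the outermost start of tars-1: it lies in introns of tars-1 and kel-1, 387 bp upstream of an internal tars-1 start and 148 bp upstream of the nearer kel-1 start.

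The other synthetase genes lay lower. The asparaginyl gene nars-1 had a signal of 86.1 at rank 1067, with rank 1254 in replicate 1 and 1611 in replicate 2. The lysyl gene kars-1 followed with 83.9 at rank 1131, with rank 5296 in replicate 1 and 1039 in replicate 2. Their summits lay 275 and 290 bp upstream of the start, and the nars-1 region also reaches nduf-6, a gene for a subunit of respiratory complex I, 403 bp away. The methionyl gene mars-1 came next (70.5, rank 1774), again with the summit 290 bp upstream. It ranked 1229 in replicate 1 and 8583 in replicate 2. Over the 23 synthetase genes with a pooled region the median rank was 11417, close to the 10406.5 of all protein-coding genes with one. In the replicate lists the synthetase median was the better one, at 6053 against 11347 in replicate 1 and 9816 against 10865 in replicate 2. A pooled region lay at 74.2% of the 31 synthetase genes, against 43.4% of all protein-coding genes. At rank 1470 or better the shares were 12.9% and 4.9%.

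The weakest synthetase sites stood near the end of the list. The glycyl gene gars-1 (signal 26.7, rank 24906), the valyl gene vars-1 (26.8, rank 24634), the mitochondrial alanyl gene aars-1 (28.0, rank 22848) and the prolyl gene pars-1 (28.2, rank 22454) each lacked a region in at least 1 replicate. No pooled region lay in the windows of dars-1, dars-2, ears-1, iars-2, lars-1, lars-2, nars-2 and wars-1. Of these, ears-1 had a region in replicate 1 at rank 6053, and lars-1 and lars-2 had one in replicate 2 at ranks 14649 and 25780. A mitochondrial product is given to 3 synthetase genes, which carry "mitochondrial" in their RefSeq name: ears-2 was bound, while rars-2 was at rank 20235 and aars-1 at 22848. Many other synthetase genes, such as yars-2 and sars-2, have names that give no compartment, so these need not be all the mitochondrial ones.

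Among initiation factor genes the subunits of eIF3, the scaffold that joins the small ribosomal subunit to the cap-binding complex, held the 2 strongest sites. Of the 11 eIF3 subunit genes with an eif-3 symbol, 2 were bound (18.2%, against 2.57% of all protein-coding genes). At pooled rank 1470 or better were 5 (45.5%, against 4.9%). The eIF3 genes were not a class planned beforehand. Over all 31 initiation factor genes the shares were 6.45% bound and 22.6% at rank 1470 or better. The peak of eif-3.C lay on chromosome I from 9979795 to 9980010, 236 bp upstream of the start. Its signal was 273 at rank 85, with 99.96 just past rank 100 in replicate 1 and 172 at rank 86 in replicate 2. All 3 lists placed it alike. The peak of eif-3.D (chrIII:8971615-8972044) had a signal of 116 at rank 538, with 45.8 at rank 640 in replicate 1 and 69.1 at rank 646 in replicate 2. It lay 252 bp upstream of eif-3.D and 62 bp upstream of R08D7.4 on the other strand, whose start was nearer.

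The next 2 eIF3 genes ranked far better in replicate 2 than in replicate 1. For eif-3.E (signal 88.2, rank 1013) the ranks were 6742 in replicate 1 and 716 in replicate 2. For eif-3.B (86.3, rank 1061) they were 10592 and 852 in the same order. At eif-3.I (84.1, rank 1124) the replicates were closer, with 1774 in replicate 1 and 1365 in replicate 2. The eif-3.I summit lies between its start, 173 bp away, and that of abtm-1, a mitochondrial ABC transporter gene, 297 bp away. Below these, eif-3.G was at rank 1894, eif-3.J at 3708 and eif-3.H at 6001. No pooled region lay in the windows of eif-3.F, eif-3.K and eif-3.L, although their products sit in the same complex.

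The genes of 2 other initiation complexes lay lower in the list. eIF2 brings the initiator tRNA to the ribosome, and eIF2B reloads it with GTP. Of their 8 subunit genes, 0 were bound and 0 were at rank 1470 or better. With shares of 2.57% and 4.9% over all protein-coding genes, a count of 0 among 8 is near the background and says nothing particular of these complexes. The strongest region of eif-2gamma ranked 2204 (signal 65.7) and that of eif-2beta 2931 (59.9), while eif-2alpha had none in any list. In eIF2B the best was eif-2Bgamma at rank 2295 (64.8), where the summit lay 9 bp from sup-39, annotated as an snRNA gene. It was the single gene of the 52 whose summit lay within 200 bp of a small RNA gene. The remaining eIF2B genes ranked 4630 (eif-2Bepsilon), 6608 (eif-2Bdelta) and 12751 (eif-2Balpha), and eif-2Bbeta had no pooled region.

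Genes for the cap-binding protein eIF4E, the ife genes, differed widely from each other. On chromosome X, ife-2 had a signal of 93.3 at rank 877, with ranks 849 in replicate 1 and 1441 in replicate 2. Also on X, ife-4 had 79.5 at rank 1286, with ranks 4171 in replicate 1 and 829 in replicate 2. By contrast ife-1 ranked 11099, ife-5 was the weakest of all 52 genes (25.5, rank 27023) and ife-3 had no pooled region. The eIF4G gene ifg-1, whose product binds eIF4E, had none either, and a region in replicate 2 alone at rank 22126. The gene eif-2D went the other way between replicates: it was among the strongest of replicate 1 (46.7, rank 610) and weak in replicate 2 (24.4, rank 12211), with pooled rank 2084. For eif-1.A no pooled region was listed, while the replicates had one at ranks 16285 and 2175.

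All 6 elongation factor genes had a pooled region, against 43.4% of all protein-coding genes, and 4 were at rank 1470 or better (66.7%, against 4.9%). The gene eef-1G encodes the gamma subunit of eEF1B, the factor that recharges eEF1A with GTP. Its peak (chrV:10965483-10965912) had a signal of 127 at rank 437, with 57.2 at rank 357 in replicate 1 and 69.2 at rank 643 in replicate 2. The pooled summit lay 21 bp upstream of eef-1G and 159 bp upstream of ctf-4 on the other strand, and the replicate summits lay 7 bp downstream of the start in replicate 1 and 74 bp upstream in replicate 2. The gene eef-1B.1 encodes a subunit annotated as elongation factor 1-beta/1-delta. Its peak (chrIII:7973024-7973453) had a signal of 118 at rank 520, with 39.6 at rank 1036 in replicate 1 and 85.8 at rank 399 in replicate 2.

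The eef-1B.1 peak was the single bound site downstream of a start. Its summit lay 147 bp into the gene, in coding sequence, and 478 bp upstream of aco-2, the mitochondrial aconitase gene on the other strand. A second pooled region overlapped it, with the summit 58 bp upstream of eef-1B.1 (signal 80.8, rank 1239). The replicates put their strongest summits at different places, 56 bp upstream of the start in replicate 1 and 56 bp downstream in replicate 2. Its paralogue eef-1B.2 had a weak region (34.6, rank 14540).

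The genes eef-1A.1 and eef-1A.2 both encode eEF1A, which carries charged tRNAs to the ribosome. On X, eef-1A.2 had a signal of 98.0 at rank 788, just below the weakest optimal peak at 101.3. It ranked 512 in replicate 2 and only 11168 in replicate 1. On chromosome III, eef-1A.1 had 81.0 at rank 1233, with 2013 in replicate 1 and 2819 in replicate 2. Its summit, 398 bp upstream, was nearer to rfc-4, a replication factor C gene 143 bp away on the other strand. How reads that match several places were treated is not given in the sources used here, and the part of such reads in these paralogues' regions was not tested. Both summits lay in intergenic sequence. The translocation factor gene eef-2 had 53.3 at rank 4176, 24 bp upstream of its start.

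The window reaches farther upstream than downstream, so most summits in it lie upstream. Of the 52 genes with a pooled region, 44 had the summit of the strongest one upstream, with a median position of -244 bp, against -207 bp over all protein-coding genes with a region. In the same 52, 32 had it in intergenic sequence. Among the 6 bound genes 5 lay upstream, between 21 and 387 bp from a start. The replicates placed the summit within 50 bp of the pooled one, both of them, at 6 of the 15 genes at rank 1470 or better (40%) and at 624 of the 965 protein-coding genes at that rank with a region in all 3 lists (64.7%). Over all ranks it was 10 of 38 genes (26.3%) and 1461 of 5453 protein-coding genes (26.8%). Outside the window, fars-1 had an optimal peak 1348 bp downstream of its start (signal 237), eif-6 had one at -2011 bp, upstream (126), and eif-2beta one 3053 bp downstream (105).

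**Figure D3:**
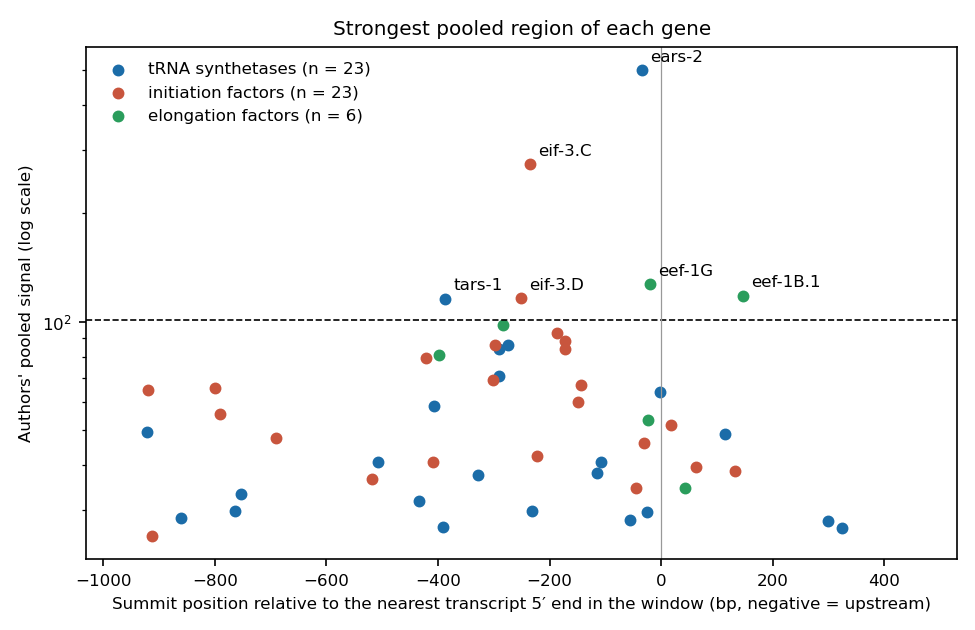
Signal of the strongest pooled region of each gene (the authors' value, log scale) against the position of its summit relative to the nearest transcript 5′ end in the window (bp, negative is upstream), with classes by colour. The dashed line is the weakest optimal peak at 101.3; the 6 named genes lie above it, 5 of them upstream of the start.

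Shared and divergent promoters were common among these genes. A gene on the other strand began within 1000 bp upstream of 29 of the 68 (42.6%), against 17.7% of all protein-coding genes. Among the bound genes this held for 5 of 6 (83.3%), against 213 of the 513 bound protein-coding genes (41.5%). At tars-1 the gene on the other strand was xpf-1, 514 bp from the outermost start. The tars-1 peak, upstream of an internal start, did not lie in the xpf-1 window. At the other 4, ears-2 with uncp-18, eef-1G with ctf-4, eef-1B.1 with aco-2 and eif-3.D with R08D7.4, the peak lay in the windows of both genes. With tars-1 and kel-1, 5 of the 6 bound genes therefore shared their peak, and eif-3.C was the exception. Of the 46 unbound genes with a pooled region, 21 shared their strongest one. The 513 bound protein-coding genes were reached by 395 optimal peaks, so shared peaks also occurred among all genes. The share of those 513 with a shared peak was not counted. Which gene of a pair a peak belongs to cannot be told from these lists.

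Some of the genes follow closely behind another gene on the same strand, as the later genes of an operon do. A same-strand gene ended within 500 bp upstream of 17 of the 68 (25%), against 18.1% of all protein-coding genes. The count was 10 of 31 synthetase genes (32.3%), 6 of 31 initiation factor genes (19.4%) and 1 of 6 elongation factor genes (16.7%). The last 2 shares are near that over all protein-coding genes, and the difference for synthetase genes was not tested. It was 1 of the 6 bound genes (eif-3.C, 400 bp behind sys-1), 10 of the 46 with a weaker region and 6 of the 16 with no pooled region (37.5%). Over all protein-coding genes it was 11.3% of the bound ones and 18.8% of those with no pooled region. The 6 genes with such a neighbour and no pooled region were eif-2alpha, eif-3.F, dars-2, iars-2, lars-2 and nars-2.

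Base composition differed between the bound and the weaker sites. In the stretch reaching 50 bp to each side of the summit, the 6 bound peaks held 49.7 ± 7.04% GC (SD over peaks) and the strongest regions of the 46 unbound genes 39.9 ± 9.81%. All 735 optimal peaks held 50.5 ± 7.23% and the other pooled regions 40.9 ± 8.96%. By gene, GC was highest at ears-2 (56.4%) and eif-3.C (55.4%) and lowest at eif-3.D (37.6%). Just below the threshold it was 63.4% at eef-1A.2 and 30.7% at ife-4.

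In the same stretch, CGCGCA was present at 2 of the 6 bound peaks (ears-2 and eif-3.C), at 12.9% of all optimal peaks and at 3.15% of the other pooled regions. CGCCGC was present at ears-2 and tars-1, at 13.6% of optimal peaks and at 3.94% of the others. TTTTCAG was present at eef-1G and eef-1B.1, at 2.86% of optimal peaks and at 9.09% of the others. At the strongest regions of the 46 unbound genes, CGCGCA was present in 6 (13.0%), GAGAGA in 8 (17.4%), and CGCCGC and TTTTCAG in 3 each (6.52%). The remaining words were in 0 of the 6 bound peaks. GAGAGA was in 19.5% of optimal peaks and 9.46% of the others, and GGTTCGA in 11.0% and 1.11%. All 6 bound peaks lay in promoter windows away from small RNA genes, and over the 322 optimal peaks of that kind the shares were 1.24% for GGTTCGA, 21.7% for GAGAGA, 20.8% for CGCGCA and 19.3% for CGCCGC. The absence of GGTTCGA from 6 peaks is therefore near the share in peaks of their kind. TATAAA was in 4.9% of optimal peaks and 7.77% of the others, and CCCGCCC in 2.86% and 0.936%. The TATAAA of the printed eif-3.D window lies outside this stretch.

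**Figure D4:**
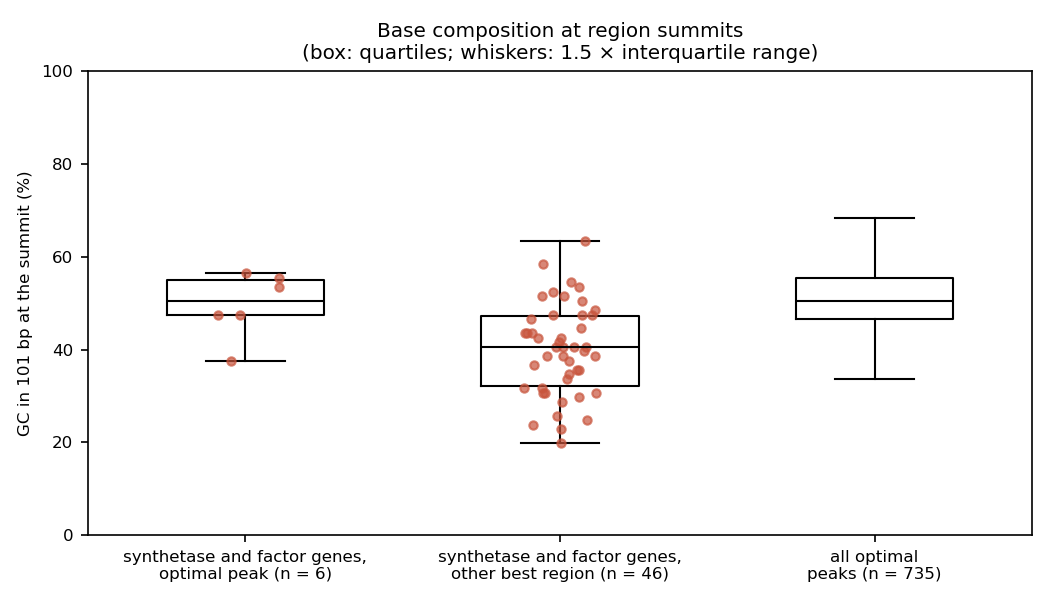
GC content (percent) from 50 bp before to 50 bp after the summit for the 6 bound synthetase and factor genes, the strongest regions of the 46 unbound ones and all 735 optimal peaks. Boxes are quartiles, whiskers reach 1.5 interquartile ranges, and points are single regions in the first 2 boxes; the medians were 50.5%, 40.6% and 50.5%.

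A list of 21 other genes of translation and its regulation, which the symbol rule leaves out, was picked by hand. It was made with earlier results of these data known and is not a complete class. Of the 21, 5 were bound (23.8%, against the 2.57% of all protein-coding genes). These were larp-1, which encodes a La-related RNA-binding protein (signal 252, rank 110), erfa-3 for the release factor eRF3 (199.9, rank 182), iff-2 for eIF5A (191, rank 204), ifet-1 for a translational repressor (158, rank 298) and pab-2 for a poly(A)-binding protein (127, rank 438). The ranks in replicate 1 were 201, 151, 191, 667 and 1258 in the same order of genes, and in replicate 2 they were 88, 226, 252, 242 and 416. The ifet-1 peak also lay in the window of the ribosomal protein gene rps-1, and 3 further peaks were shared: larp-1 with wip-1, erfa-3 with math-33 and iff-2 with F54C9.14. Of the 16 unbound genes of this list none was at rank 1470 or better. Over all protein-coding genes the share at that rank was 4.9%, bound genes included, so this absence is near the background. The nearest was the poly(A)-binding gene pab-1 at rank 2003. In the cytoplasmic ribosomal protein genes, the most closely related class, 14 of 81 were bound (17.3%) and 24 were at rank 1470 or better (29.6%).

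The correlation of signals between the replicates was close to that over all protein-coding genes. Over the 40 genes with a region in both replicates, Spearman's rho of the signals was 0.465 and Pearson's r of their log2 values 0.697. Over 5852 protein-coding genes these were 0.461 and 0.645. Genes share the libraries and are not independent, so these are descriptions. Of the 40, 24 had the better rank in replicate 2 (60%), against 51.9% of all protein-coding genes with a region in both.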

How the data were processed

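PAT-9 ChIP-seq of 2 biological replicates was described through 4 deposited narrowPeak lists on ce11. Per the descriptive text deposited with them, the authors called the regions of each replicate on its alignments with a control, the pooled list on both replicates, and derived the optimal list by IDR. The sources used here do not name the aligner, the caller or the IDR threshold. The authors' signal value per region ranks regions within a list, and their deposited −log10 q is given once. Depth is unknown.

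Genes and starts came from Ensembl release 115 (WBcel235, the assembly of ce11, nuclear chromosomes only), product names and sequence from RefSeq. A gene's value is its region with the highest signal among summits in the promoter window. The 735 optimal peaks are the 735 strongest pooled regions. A summit could count for several genes. With 1 group there was no comparison of conditions and no test. The assignment was tested on simulated data.

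The genes and lists were chosen with earlier results of these data known. Named were bound genes with those sharing their peaks, genes at ranks 736 to 1470, the next 5, the weakest 5, those with no pooled region, and bound genes of the list of 21. Other names (the remaining eIF3, eIF2, eIF2B, ife and elongation factor genes, rars-2, pab-1, fars-1, eif-6) were chosen after their values were seen. Alternatives were other peak numbers, windows, gene assignments and overlap, each replicate alone, and leaving out or redefining proximity to small RNA genes. Work used Python 3.11.15, NumPy 2.4.6, pandas 2.3.3, SciPy 1.17.1 and matplotlib 3.10.9.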

Additional observations from a re-analysis of the deposited data

How the results depend on the processing

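The count of bound genes, 6 of 68, was 2 with the stronger 50% of the optimal peaks (ears-2 and eif-3.C, against 1.25% of all protein-coding genes), 15 with double the number (4.9%), and 5 to 8 with each replicate alone (2.29% and 2.51%). Synthetase genes went to 1 and 4 with the stronger 50% and double the number, initiation factor genes to 1 and 7, and elongation factor genes to 0 and 4. With each replicate alone these were 1 to 2, 3 and 1 to 3. When each summit counted only for the nearest start, 4 genes were bound, against 1.93% of all protein-coding genes. There was then 1 synthetase and 1 initiation factor gene, since tars-1 and eif-3.D lost their peaks to kel-1 and R08D7.4, and 3 genes of the list of 21. A window from 500 bp upstream to 100 bp downstream left 5 bound genes (1.87% of all protein-coding genes), with 1 elongation factor gene, without eef-1B.1, and 3 of the 21. It gave a median rank of 3679 in place of 4965, and the replicates alone gave 5202 to 6742. Requiring an overlap of 1 bp in place of the summit, or leaving out summits near small RNA genes, kept the same 6 bound genes. No bound gene had its summit within 500 bp of a small RNA gene. The number of replicates, 2, and the unknown depth limit how far ranks near the threshold can be read.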

Other observations

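The authors' deposited −log10 q did not follow their signal near the threshold. The 4 bound genes at ranks 437 to 540 (eef-1G, eef-1B.1, eif-3.D and tars-1) had −log10 q values from 2.46 to 2.56. All 9 unbound genes at ranks 788 to 1286 had higher ones, from 2.57 at ife-4 to 2.83 at eif-3.E. Over the whole pooled list the median was 2.58 at ranks 412 to 735 and 2.67 at ranks 736 to 1470. By this column the 9 unbound genes stand ahead of these 4 bound ones, though not of ears-2 and eif-3.C (2.91 each).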
